A study of Mus musculus with 6 samples.

Results

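The genes described here are 41 mouse genes of the interferon response: 31 interferon-stimulated genes and 10 genes of the class I antigen presentation pathway. They were chosen by symbol, as the rows of the deposited count table that carry these names, out of 24498 genes in the table. All 41 had counts and all 41 passed the filter on low counts, which left 13846 genes for testing. The filter keeps a gene that is high in a single group, so passing it is not independent of a difference between groups. The libraries come from lineage-marked epithelial cells of the mouse prostate, sorted by a fluorescent reporter after digestion of the tissue and sequenced in bulk as total RNA. Males of 2 crosses were used. In the Clu intact group, a tamoxifen-inducible Cre (CreER(T2)) driven by Clu, which encodes clusterin, a chaperone that is secreted, marked cells with tdTomato, and the males were left intact. In the Nkx castrate and Nkx intact groups, the same kind of Cre, in the line labelled Nkx, marked cells with EYFP. The Nkx castrate males were castrated at 8 weeks of age, the Nkx intact males kept their testes, and tissue was taken 4 weeks later from every group. Both reporters sit at the Rosa26 locus, and all animals carried a Cre and a reporter. The labels put all mice of the study between 7 and 13 weeks of age. A Cre of this type marks whichever cells express the driver gene when it is induced, and the labels give neither the time of induction nor the sorting gate. Since the Clu line was sampled only in intact males, cross and reporter cannot be told apart from the cell population in any comparison with it.

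Interferons are secreted proteins that bind receptors on the cell surface and, through Janus kinases, activate transcription factors of the STAT family. A complex of STAT proteins with IRF9 binds a DNA element named the interferon-stimulated response element (ISRE), and STAT dimers bind the gamma-activated site (GAS). The genes they turn on encode antiviral enzymes, RNA sensors, GTPases and chemokines, and they include the machinery that loads peptides onto class I molecules. That machinery cuts proteins with the immunoproteasome, carries the peptides into the endoplasmic reticulum through the TAP transporter, and loads them onto a heavy chain paired with beta-2-microglobulin. Class I molecules show these peptides to cytotoxic T cells, and most nucleated cells, prostate epithelium included, carry them.

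Each group held 2 libraries, named here by group and replicate number, with 10220118 to 17412874 counts assigned to genes. Nothing in the labels states that the replicates are different animals. The p-values therefore reflect only how far these libraries vary, and part of that variation may be technical. Levels are in CPM, which are counts scaled to a common library total after adjustment by the TMM factors, and 1 count is worth 0.0561 to 0.0988 CPM. The epithelial markers Epcam, Cdh1, Krt8, Krt18 and Cldn4 had counts in every library, with a summed level of 3758 to 9791 CPM. Markers of other cell types were also present, at levels that differed between libraries. Those of leukocytes (23 genes) summed to 26.8 and 25.5 CPM in the Clu intact libraries, 265.7 and 39.7 CPM in the Nkx castrate libraries, and 137.6 and 128.8 CPM in the Nkx intact libraries. Those of endothelial cells (12 genes) summed to 1146 and 469.1 CPM in Clu intact cells, 479.8 and 80.5 CPM in Nkx castrate cells, and 94.3 and 63.5 CPM in Nkx intact. Nkx castrate 1 had counts for all 23 leukocyte markers and stood far above Nkx castrate 2 in both lists. Those of stromal cells (14 genes) summed to 801.8 and 652.3 CPM in Clu intact cells, 2488 and 644.6 CPM in Nkx castrate cells, and 790.6 and 655.6 CPM in Nkx intact. In bulk RNA, fewer cells of a type and less RNA per cell cannot be told apart.

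Promoters of these genes were searched for the letters of elements that interferon signalling acts through, which some of the genes hold and others do not. A window from 250 bases before to 50 bases after the gene start, taken from RefSeq on GRCm38.p6, was at hand for 32 of the 41 genes. The counts were made on a later build, so these coordinates belong to the RefSeq sequence alone. The ISRE was searched as GAAA, then 2 bases of any kind, then GAAA, on both strands, the wider core bound by interferon regulatory factors (IRF core) as AANNGAAA, which overlaps the ISRE, and the GAS as TTCNNNGAA. An ISRE match was found in 14 of 24 interferon-stimulated genes and in 1 of 8 class I genes, against 3.99% of all 27025 genes with a window. The IRF core was found in 18 of the same 24 and 3 of the same 8 genes, against 26.67% of all genes. The GAS was found in 6 of 24 and 1 of 8, against 9.55%. A match is a run of letters in this window and not a measured binding site. Among the genes called in a comparison below that have a window, the ISRE letters occur in Cxcl10 and B2m. Both are shown because they were lower after castration, together with Isg15, Gbp2 and Igtp, which were picked after their values were seen as examples of a ubiquitin-like modifier gene and of GTPase genes. Capitals mark the ISRE letters on either strand.
Cxcl10 (chr5:92349068-92349127, minus strand): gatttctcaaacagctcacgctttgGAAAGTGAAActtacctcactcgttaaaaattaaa
B2m (chr2:122147523-122147582, plus strand): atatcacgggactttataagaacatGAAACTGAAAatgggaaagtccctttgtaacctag
Isg15 (chr4:156200850-156200921, minus strand): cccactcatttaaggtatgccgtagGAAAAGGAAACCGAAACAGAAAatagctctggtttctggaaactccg
Gbp2 (chr3:142620579-142620638, plus strand): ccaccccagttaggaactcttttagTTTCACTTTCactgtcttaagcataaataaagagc
Igtp (chr11:58199497-58199555, plus strand): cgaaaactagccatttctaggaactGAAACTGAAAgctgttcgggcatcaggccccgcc

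Isg15 holds 3 overlapping copies of the ISRE, and the Gbp2 match lies on the opposite strand. H2-K1 and H2-D1, the classical class I heavy chains, hold no ISRE letters in their windows but share a stretch with the IRF core, marked by capitals.
H2-K1 (chr17:34000405-34000462, minus strand): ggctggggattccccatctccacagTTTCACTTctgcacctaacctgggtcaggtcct
H2-D1 (chr17:35262919-35262976, plus strand): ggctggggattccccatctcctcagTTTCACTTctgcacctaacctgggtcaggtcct

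Over these 58 bases the stretches differ by a single substitution, A22T, counted from 1 at the 5′ end of the printed stretch with the H2-K1 base first. The transcripts of this pair, and of other H2 genes, are also alike, so reads could be split between them and the counts of each are uncertain. The same holds for the Ifit genes, the Gbp genes, Mx1 with Mx2, and Igtp with Irgm1. Parp9 and Dtx3l, and Psmb9 and Tap1, lie next to each other on opposite strands, and the strand setting of the counting is not given in the sources used here.

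Among the 41 genes, B2m, H2-D1 and H2-K1 of class I held the highest levels. Other class I genes lay lower, such as Psmb9 and Nlrc5 at 0.609 and 0.148 CPM per kb of exon in Nkx intact. Per kilobase of exon, the order in Nkx intact cells was B2m at 1148 ± 170.7, H2-D1 at 151.0 ± 8.28, H2-K1 at 132.4 ± 4.95, Cxcl10 at 40.8 ± 8.37 and Tapbp at 39.0 ± 0.856 CPM per kb (SD, n = 2). Cxcl10 and Tapbp did not differ beyond their spread, and Cxcl10 was the only interferon-stimulated gene at such a level in any of the 3 groups. In Clu intact cells the order was B2m at 1719 ± 298.8, H2-D1 at 384.1 ± 125.6, H2-K1 at 225.3 ± 29.2 and Tapbp at 61.2 ± 7.88 CPM per kb, with Dtx3l next at 20.0 ± 4.46. Nkx castrate cells had B2m at 357.4 ± 122.7, H2-D1 at 180.4 ± 17.2, H2-K1 at 177.0 ± 16.6 and Tapbp at 42.9 ± 12.9 CPM per kb, where the heavy chains did not differ beyond their spread. Summed over the class, the 10 genes gave 2977 and 3976 CPM in Clu intact cells, 1524 and 1613 CPM in Nkx castrate cells, and 2101 and 1827 CPM in Nkx intact. The sum is dominated by B2m and the heavy chains, and the castrate libraries lay lowest in it although 8 of the 10 genes were higher in both castrate than in both intact Nkx libraries, as were 25.4% of all tested genes.

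**Figure D1:**
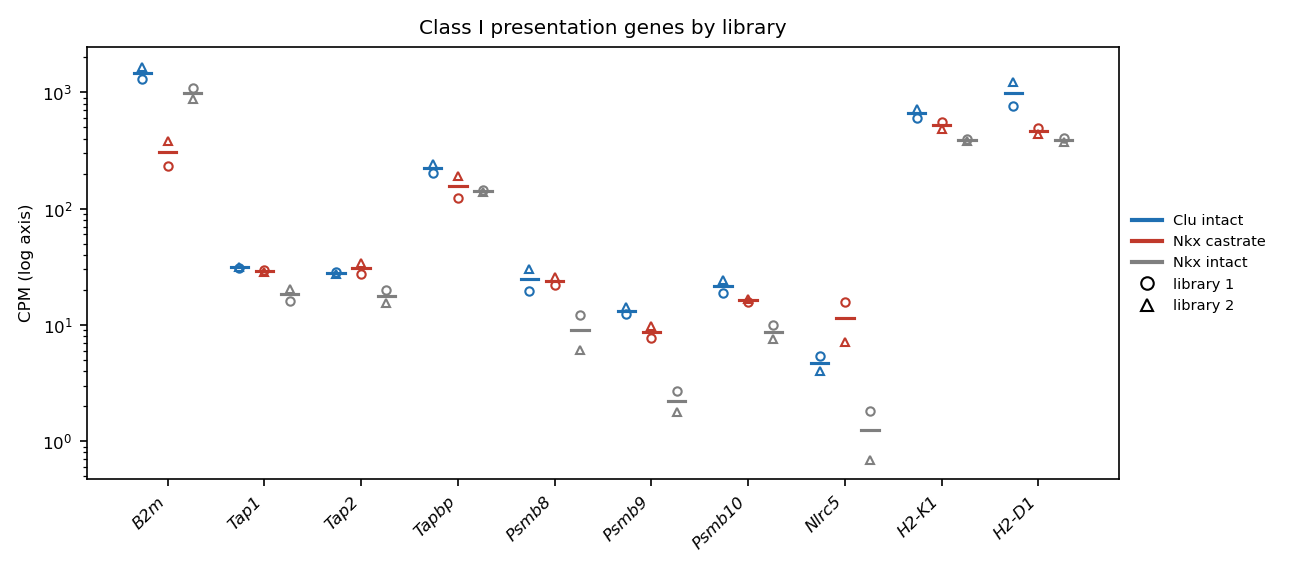
Level of the 10 class I presentation genes in each library (CPM, log axis). Circles are replicate 1, triangles replicate 2 and lines the mean of the 2 libraries, in the order Clu intact, Nkx castrate, Nkx intact. All genes lie above Nkx intact in both Clu intact libraries, and B2m is the gene that drops in Nkx castrate, to 232.7 and 382.0 CPM.

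After castration the light chain of class I went down while the heavy chains did not. B2m, which encodes beta-2-microglobulin, had 232.7 and 382.0 CPM in the Nkx castrate libraries, against 1091 and 883.1 CPM in the Nkx intact libraries. Both castrate libraries lay far below both intact ones, a 3.21-fold lower level (log2 fold change -1.68, SE 0.28, edgeR adjusted p = 0.0102). All adjusted p here are from the quasi-likelihood test of edgeR with the Benjamini-Hochberg method over all tested genes. B2m had 1297 and 1660 CPM in Clu intact, above every Nkx library. Clu intact exceeded Nkx castrate 4.81-fold (log2 fold change 2.27, SE 0.28, edgeR adjusted p = 0.0021) and was not called against Nkx intact (0.58, SE 0.27, edgeR adjusted p = 0.219). The heavy chain gene H2-K1 had 601.4 and 722.7 CPM in Clu intact cells, 554.6 and 485.5 CPM in Nkx castrate cells, and 399.3 and 378.8 CPM in Nkx intact. Its libraries fell into 3 groups without overlap, and Clu intact was called higher than Nkx intact (log2 fold change 0.77, SE 0.18, edgeR adjusted p = 0.0325), while Nkx castrate over Nkx intact was not called (0.42, edgeR adjusted p = 0.207). H2-D1, the other heavy chain, had 761.5 and 1220 CPM in Clu intact cells, 496.6 and 433.9 CPM in Nkx castrate cells, and 404.4 and 374.2 CPM in Nkx intact. Clu intact was called higher than Nkx intact (log2 fold change 1.35, SE 0.24, edgeR adjusted p = 0.0123) and than Nkx castrate (1.09, SE 0.24, edgeR adjusted p = 0.0196), and the castrate libraries lay above the intact ones with a log2 fold change of 0.26 that was not called.

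The balance of light to heavy chain transcripts differed between groups. The ratio of B2m to the sum of H2-K1 and H2-D1 was 0.952 and 0.855 in Clu intact cells, 0.221 and 0.415 in Nkx castrate cells, and 1.36 and 1.17 in Nkx intact. The 3 groups did not overlap. A ratio of this kind does not depend on the scaling of the library and shows only that the genes changed unequally. No test was run on it, since B2m itself had been seen to differ.

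**Figure D2:**
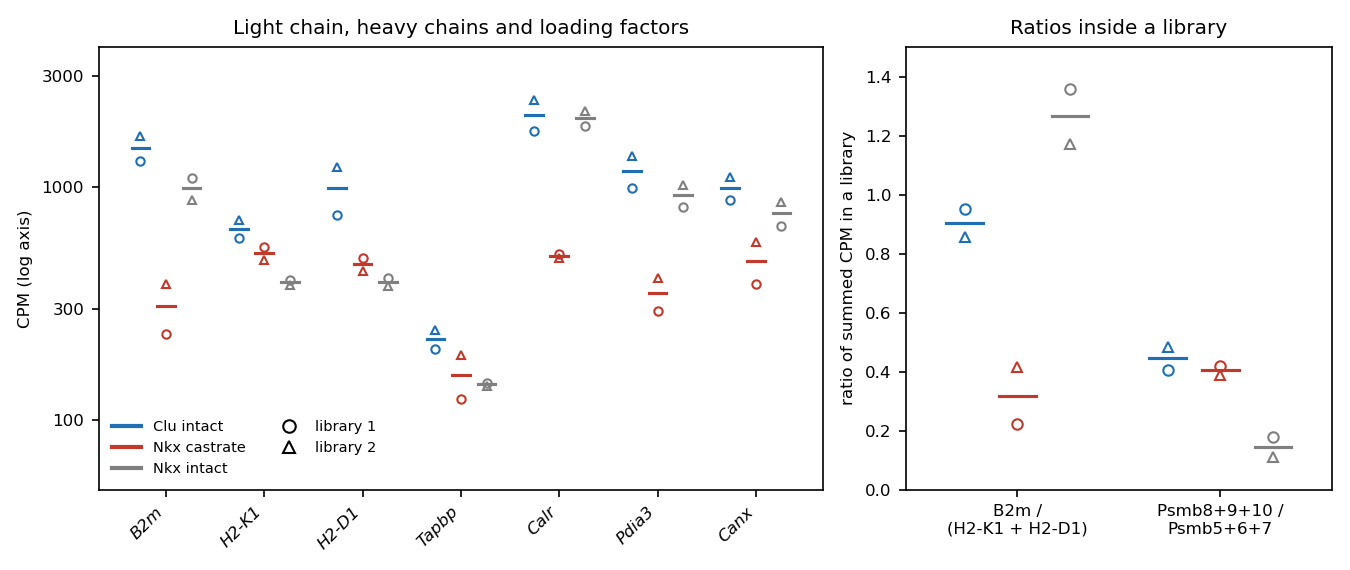
Left, level (CPM, log axis) of B2m, the heavy chains, Tapbp and the chaperones Calr, Pdia3 and Canx in each library. Right, ratios of summed CPM inside each library, where lines are the group means. B2m over the heavy chains averaged 0.903 in Clu intact cells, 0.318 in Nkx castrate cells and 1.26 in Nkx intact, while immunoproteasome over constitutive subunits averaged 0.445, 0.404 and 0.144 in the same order.

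Calr and Pdia3, genes of general chaperones of the endoplasmic reticulum that take part in class I folding, went the way of B2m after castration. Canx, another chaperone gene of the same list, was not called in that comparison. Calr encodes calreticulin, a member of the peptide-loading complex, and had 513.5 and 496.3 CPM in Nkx castrate, against 1825 and 2129 CPM in Nkx intact. It fell 3.92-fold (log2 fold change -1.97, SE 0.22, edgeR adjusted p = 0.00241). Pdia3 encodes the disulfide isomerase ERp57 of the same complex, and it fell 2.63-fold (-1.40, SE 0.25, edgeR adjusted p = 0.0138), with 293.9 and 406.9 CPM in Nkx castrate cells and 822.8 and 1021 CPM in Nkx intact. Both were higher in Clu intact than in Nkx castrate, with log2 fold changes of 2.02 for Calr (edgeR adjusted p = 0.00111) and 1.74 for Pdia3 (edgeR adjusted p = 0.00368). These chaperones also fold other secretory proteins, and they are not members of the class described here.

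Among the genes of peptide transport, Tap1, Tap2 and Tapbp were not called in any comparison. Tap1 and Tap2 encode the subunits of the peptide transporter. Tap1 had 30.96 and 31.4 CPM in Clu intact cells, 29.8 and 28.5 CPM in Nkx castrate cells, and 16.2 and 20.4 CPM in Nkx intact. Tap2 had 28.4 and 27.4 CPM in Clu intact cells, 27.3 and 33.9 CPM in Nkx castrate cells, and 20.0 and 15.3 CPM in Nkx intact. For both genes the Nkx intact libraries were the lowest pair, with log2 fold changes over Nkx intact of 0.77 and 0.66 in Clu intact cells and 0.67 and 0.79 in Nkx castrate (Tap1 first). Tapbp encodes tapasin, which bridges the transporter and the empty class I molecule. It had 201.9 and 242.3 CPM in Clu intact cells, 122.5 and 188.8 CPM in Nkx castrate cells, and 143.8 and 139.4 CPM in Nkx intact. The castrate libraries lay on either side of the intact ones.

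Immunoproteasome subunits were lowest in Nkx intact in every case. Psmb9 (the subunit LMP2) had 12.3 and 14.1 CPM in Clu intact cells, 7.74 and 9.76 CPM in Nkx castrate cells, and 2.68 and 1.78 CPM in Nkx intact. It rose in both comparisons with Nkx intact, with log2 fold changes of 2.56 in Clu intact (SE 0.44, edgeR adjusted p = 0.0106) and 1.97 in Nkx castrate (SE 0.44, edgeR adjusted p = 0.0329), which share the Nkx intact libraries. Psmb10 (MECL-1) had 18.9 and 24.3 CPM in Clu intact cells, 15.6 and 16.9 CPM in Nkx castrate cells, and 9.95 and 7.51 CPM in Nkx intact. Clu intact was called against Nkx intact (log2 fold change 1.30, SE 0.31, edgeR adjusted p = 0.0334) and Nkx castrate was not (0.89, SE 0.31, edgeR adjusted p = 0.126). Psmb8 (LMP7) had 19.5 and 30.2 CPM in Clu intact cells, 21.8 and 26.0 CPM in Nkx castrate cells, and 12.1 and 6.02 CPM in Nkx intact, and missed the threshold in both (edgeR adjusted p = 0.0539 for Clu intact and 0.0715 for Nkx castrate). These 3 subunits replace Psmb5, Psmb6 and Psmb7 in the assembled particle. None of the 3 constitutive genes was called in any comparison. The ratio of the summed immunoproteasome subunits to the summed constitutive ones was 0.406 and 0.484 in Clu intact cells, 0.419 and 0.390 in Nkx castrate cells, and 0.179 and 0.109 in Nkx intact. Clu intact and Nkx castrate overlapped in this ratio, and both lay above Nkx intact.

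Nlrc5, a transcriptional activator of class I genes, followed another order, with the castrate libraries on top. It had 5.40 and 4.04 CPM in Clu intact cells, 15.7 and 7.17 CPM in Nkx castrate cells, and 1.82 and 0.691 CPM in Nkx intact, without overlap between groups. The rise in Nkx castrate over Nkx intact was called (log2 fold change 3.18, SE 0.68, edgeR adjusted p = 0.0290). Its log2 fold change was 2.50 without Nkx castrate 1 and 4.02 without Nkx intact 1, where the call was lost (edgeR adjusted p = 0.0831). Clu intact against Nkx intact was not called (1.90, SE 0.67, edgeR adjusted p = 0.117), nor was Clu intact against Nkx castrate (-1.28, SE 0.62, edgeR adjusted p = 0.199). Nlrc5 is also expressed in leukocytes, whose 23 markers summed to 265.7 CPM in Nkx castrate 1 but 39.7 CPM in Nkx castrate 2, and their part in the result was not tested.

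Counted over the class, castration brought 2 genes up (Psmb9 and Nlrc5) and 1 down (B2m) of 10, against 4.02% of all tested genes called higher and 4.59% called lower. Libraries did not overlap for 8 genes upward and 1 downward, where 25.4% and 24.6% of all genes did so. Clu intact cells had 4 of 10 higher than Nkx intact cells (Psmb9, H2-D1, H2-K1 and Psmb10) and 0 lower, against backgrounds of 6.29% and 5%. All 10 had both Clu intact libraries above both Nkx intact libraries, as did 31.9% of all tested genes. Of the 10, 9 had an unadjusted p under 0.05 in edgeR, as did 3634 of the 13846 genes tested. DESeq2 likewise called 0 of the class lower there. Against Nkx castrate, Clu intact had 2 higher (B2m and H2-D1) and 0 lower in edgeR and in DESeq2, with backgrounds of 8.82% and 8.1%. An unadjusted p under 0.05 in edgeR was found for 2 of the 10, against 4495 of the 13846 genes tested, so this share lay below the background. The median log2 fold change of the class was 0.73, 1.04 and 0.38 in these 3 comparisons, beside medians of 0.05, -0.01 and -0.00 over all genes tested. The comparisons share libraries and are not independent of each other.

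Among other class I genes, chosen as a list of 24 of which 22 were tested, the non-classical heavy chains did not move together. In Nkx castrate over Nkx intact, H2-Q4 was called higher (142.8 and 92.2 CPM in Nkx castrate cells, 38.2 and 33.3 CPM in Nkx intact, log2 fold change 1.72, edgeR adjusted p = 0.0063) and 3 genes lower, which were Calr, Pdia3 and Mr1. Over all tested genes 4.02% were called higher and 4.59% lower there, so 1 of 22 higher is near the background. The shares called higher and lower were 6.29% and 5% in Clu intact over Nkx intact, and 8.82% and 8.1% in Clu intact over Nkx castrate. Mr1 presents vitamin metabolites to a class of innate-like T cells. It was also lower in Clu intact than in Nkx intact, with 23.3 and 19.6 CPM in Clu intact cells, 23.1 and 20.6 CPM in Nkx castrate cells, and 42.3 and 48.4 CPM in Nkx intact (log2 fold changes of -1.08 and -1.05, edgeR adjusted p = 0.0228 and 0.0303, Clu intact first). In Clu intact, H2-Q10 and H2-T10 were higher than in Nkx intact, and H2-Q10, a soluble class I molecule known from liver, reached 15.9 and 13.0 CPM, against 1.91 and 0.790 CPM in Nkx intact. H2-Q4 and H2-T23, which encodes the ligand Qa-1 of natural killer cell receptors, were lower in Clu intact than in Nkx castrate (log2 fold changes -1.003 and -1.30, edgeR adjusted p = 0.0256 and 0.0221), while Calr, Pdia3 and Canx were higher, Canx being named after its values were seen. H2-T23 had 63.6 and 36.0 CPM in Clu intact cells, 103.4 and 143.0 CPM in Nkx castrate cells, and 77.8 and 64.3 CPM in Nkx intact.

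Among the 31 interferon-stimulated genes, most had their lower levels in Nkx intact, and the chemokine gene Cxcl10 had its highest there. In Nkx castrate against Nkx intact, 2 rose (Parp14 and Zbp1) and 1 fell (Cxcl10), shares to be read beside the same 4.02% and 4.59% of all tested genes. Fold changes lay above 0 for 26 of 31, and for 7337 of the 13846 genes tested. Libraries did not overlap for 20 upward and 2 downward, where 25.4% and 24.6% of all tested genes did so. In edgeR 15 of 31 had an unadjusted p under 0.05, against 3262 of the 13846 genes tested. In Clu intact against Nkx intact, 7 rose (Dtx3l, Parp14, Parp9, Samd9l, Oasl2, Zbp1 and Cmpk2) and 1 fell, against 6.29% and 5% of all genes. Fold changes lay above 0 for 29 of 31, and for 6836 of the 13846 genes tested. Libraries did not overlap for 22 upward and 1 downward, where 31.9% and 31.3% of all genes did so. In edgeR 20 of 31 had an unadjusted p under 0.05, against 3634 of the 13846 genes tested. The median log2 fold change was 1.25, beside 0.95 in Nkx castrate over Nkx intact. Clu intact had 3 genes called higher than Nkx castrate in edgeR (Parp9, Samd9l and Dtx3l), against 8.82% of all genes. DESeq2 called 4 higher, beside 1600 of 14182 genes. Called lower were 0 in both, where edgeR called 8.1% of all genes lower. An unadjusted p under 0.05 in edgeR was found for 6 of 31, against 4495 of the 13846 genes tested, so this share lay below the background. The median log2 fold change of the 31 genes there was 0.30.

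**Figure D3:**
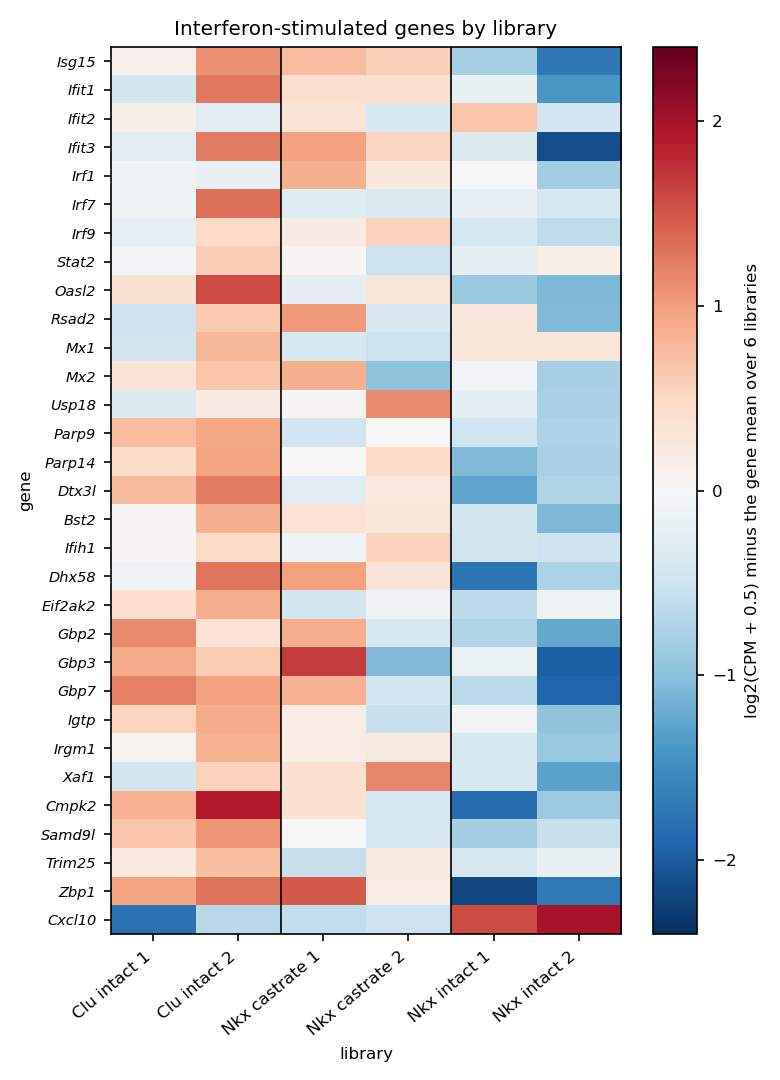
Level of the 31 interferon-stimulated genes in each library, as log2(CPM + 0.5) minus the mean of the gene over the 6 libraries (colour scale). Columns run from Clu intact through Nkx castrate to Nkx intact. Most rows are darkest blue in a Nkx intact column, Clu intact 2 is red in most rows, and Cxcl10 is red in Nkx intact, where it had 78.6 and 105.3 CPM.

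Cxcl10 encodes the chemokine IP-10, which attracts T cells through the receptor CXCR3. It had 7.17 and 16.4 CPM in Clu intact cells, 17.2 and 18.4 CPM in Nkx castrate cells, and 78.6 and 105.3 CPM in Nkx intact. Both Nkx intact libraries lay above all 4 others. Its level was 5.17-fold lower in Nkx castrate than in Nkx intact (log2 fold change -2.37, SE 0.37, edgeR adjusted p = 0.00898) and 7.83-fold lower in Clu intact (-2.97, SE 0.39, edgeR adjusted p = 0.00356). In Clu intact the 2 libraries differed, and without Clu intact 2 the log2 fold change was -3.66 (edgeR adjusted p = 0.00412). Clu intact against Nkx castrate was not called (-0.60, SE 0.37, edgeR adjusted p = 0.306). Of the 5 genes whose ISRE letters are printed above, Cxcl10 and B2m were shown because they were lower in Nkx castrate than in Nkx intact. Isg15, Gbp2 and Igtp, picked with their values in view, had log2 fold changes above 0 there that were not called. In Clu intact over Nkx intact only Cxcl10 of the 5 lay below 0. The 5 genes were chosen with these values known, so their directions show nothing about genes with the ISRE letters. Isg15, the ubiquitin-like modifier, had 4.39 and 9.22 CPM in Clu intact cells, 7.13 and 6.21 CPM in Nkx castrate cells, and 2.10 and 0.889 CPM in Nkx intact, and was not called (edgeR adjusted p = 0.0777 for Clu intact and 0.0929 for Nkx castrate).

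The ADP-ribosylation genes Parp14 and Parp9, with their partner Dtx3l, made up 3 of the 7 interferon-stimulated genes higher in Clu intact than in Nkx intact. Parp14, a mono-ADP-ribosyltransferase, had 93.1 and 132.6 CPM in Clu intact cells, 68.1 and 92.7 CPM in Nkx castrate cells, and 32.3 and 39.5 CPM in Nkx intact. It was higher in Clu intact than in Nkx intact (log2 fold change 1.65, SE 0.26, edgeR adjusted p = 0.00694) and higher in Nkx castrate than in Nkx intact (1.16, SE 0.25, edgeR adjusted p = 0.0307). Dtx3l encodes a ubiquitin ligase that works as a complex with the product of Parp9. Dtx3l had 96.6 and 132.7 CPM in Clu intact cells, 47.6 and 66.4 CPM in Nkx castrate cells, and 23.2 and 34.3 CPM in Nkx intact. Its 3 groups did not overlap. Clu intact was called against Nkx intact (log2 fold change 2.00, SE 0.29, edgeR adjusted p = 0.00497) and against Nkx castrate (1.01, SE 0.28, edgeR adjusted p = 0.0434), and Nkx castrate against Nkx intact missed the threshold (0.99, SE 0.28, edgeR adjusted p = 0.0755). Parp9 had 49.4 and 56.8 CPM in Clu intact cells, 21.4 and 29.4 CPM in Nkx castrate cells, and 21.1 and 17.4 CPM in Nkx intact. Here the castrate libraries sat close to the intact ones, and Clu intact rose above both, by 1.46 over Nkx intact (SE 0.25, edgeR adjusted p = 0.0107) and 1.06 over Nkx castrate (SE 0.25, edgeR adjusted p = 0.0243) on the log2 scale.

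Antiviral effectors supplied the rest of the calls. Samd9l, a restriction factor of poxviruses, had 34.2 and 44.9 CPM in Clu intact cells, 21.6 and 16.0 CPM in Nkx castrate cells, and 11.96 and 14.6 CPM in Nkx intact. Clu intact was higher than Nkx intact (log2 fold change 1.57, SE 0.28, edgeR adjusted p = 0.0121) and than Nkx castrate (1.07, SE 0.28, edgeR adjusted p = 0.0344). Oasl2, a member of the oligoadenylate synthetase family, had 47.9 and 110.8 CPM in Clu intact cells, 31.5 and 45.7 CPM in Nkx castrate cells, and 19.9 and 17.3 CPM in Nkx intact. Its rise in Clu intact over Nkx intact (log2 fold change 2.09, SE 0.40, edgeR adjusted p = 0.0152) leaned on Clu intact 2, since without that library it was 1.38 and not called (edgeR adjusted p = 0.0850). Cmpk2, a nucleotide kinase of mitochondria that lies beside Rsad2 in the genome, had 6.24 and 13.7 CPM in Clu intact cells, 4.38 and 2.37 CPM in Nkx castrate cells, and 0.574 and 1.58 CPM in Nkx intact. The log2 fold change of Clu intact over Nkx intact was 3.20 (SE 0.76, edgeR adjusted p = 0.0339), and it was 2.54 without Clu intact 2 and 4.10 without Nkx intact 2, where the call was lost (edgeR adjusted p = 0.291 and 0.0942).

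Zbp1, a sensor of nucleic acids in the Z form that can trigger necroptosis, was nearly uncounted in Nkx intact. It had 46 and 54 counts in Clu intact cells, 103 and 28 counts in Nkx castrate cells, and 0 and 2 counts in Nkx intact. In CPM these were 3.88 and 5.08 (Clu intact), 5.78 and 2.07 (Nkx castrate), and 0 and 0.198 (Nkx intact). From these counts the ratio over Nkx intact was 45.8 in Clu intact (exact 95% interval 12.3 to 383.1) and 43.0 in Nkx castrate (11.7 to 358.8), where the intervals cover counting error only. Both were called higher (edgeR adjusted p = 0.0265 and 0.0365), and Clu intact did not differ detectably from Nkx castrate (edgeR adjusted p = 0.910). Neither call was made without Nkx intact 1 or without Nkx intact 2, the library that held both counts.

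**Figure D4:**
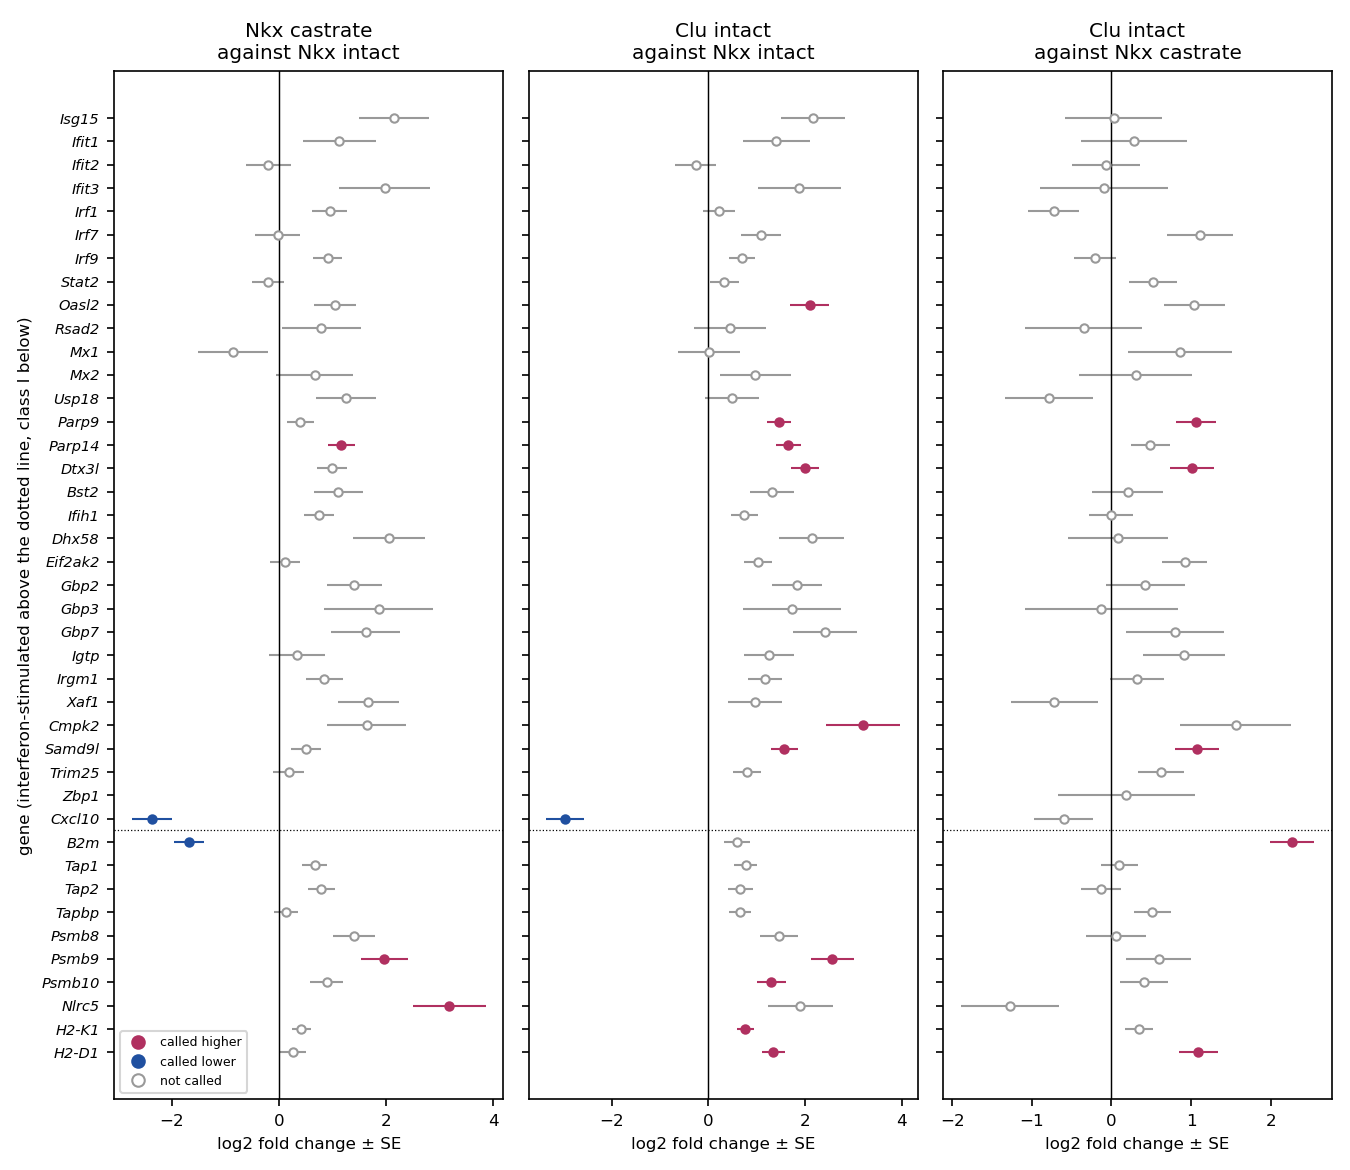
Log2 fold change (± SE of the model) of each member in the 3 comparisons, with interferon-stimulated genes above the dotted line and class I genes below it. Filled symbols were called at an edgeR adjusted p under 0.05, and Zbp1 is left out of the comparisons with Nkx intact, where its group had 2 counts. Most points in the left and middle panels lie right of 0, with Cxcl10 at -2.37 and -2.97, and B2m at -1.68 in the left panel.

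The transcription factors of the pathway were well expressed and were not called in any comparison. Irf9, the partner of STAT2 in the complex that binds the ISRE, had 47.9 and 77.3 CPM in Clu intact cells, 63.2 and 81.5 CPM in Nkx castrate cells, and 40.9 and 35.9 CPM in Nkx intact. Stat2 had 48.5 and 76.7 CPM in Clu intact cells, 51.9 and 35.1 CPM in Nkx castrate cells, and 43.3 and 56.4 CPM in Nkx intact, and its groups overlapped in all 3 comparisons. Trim25, a ubiquitin ligase that acts on the RNA sensor RIG-I, had 85.4 and 118.4 CPM in Clu intact cells, 48.9 and 83.5 CPM in Nkx castrate cells, and 53.4 and 63.4 CPM in Nkx intact. Both Clu intact libraries exceeded all others, although the castrate libraries bracketed the intact ones. The remaining 20 interferon-stimulated genes had library levels between 0.593 and 95.8 CPM and none was called. Of these, 17 had a fold change above 0 in Nkx castrate over Nkx intact, where 7337 of the 13846 genes tested did so. The numbers were 19 in Clu intact over Nkx intact, beside 6836, and 12 in Clu intact over Nkx castrate, beside 6895. For the 20 genes, log2 fold changes ran between -0.85 (Mx1) and 2.15 (Isg15) in Nkx castrate over Nkx intact. In Clu intact over Nkx intact they ran between -0.27 (Ifit2) and 2.42 (Gbp7). The lowest adjusted p among them was 0.0544, for Gbp7 in Clu intact over Nkx intact in edgeR. Between Clu intact and Nkx castrate they ran from -0.78 (Usp18) to 1.11 (Irf7).

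Part of the spread lay between replicates. In Clu intact, library 2 exceeded library 1 for 26 of 31 interferon-stimulated genes (83.9%), where 49.9% of all tested genes did so. Irf7, the factor that amplifies the type I response and a gene chosen here after its values were seen, had 34.9 CPM in Clu intact 1 and 95.8 CPM in Clu intact 2, against 28.6 to 32.9 CPM in the other 4 libraries. Splitting off the 5 GTPase genes, a choice also made after seeing the values, left 26 genes of which 24 were higher in Clu intact 2, by a median of 1.60-fold. The GTPase genes Gbp2, Gbp3, Gbp7, Igtp and Irgm1 encode proteins that attack vacuoles of intracellular pathogens. Library 1 was higher for 3 of these 5 in Clu intact, 4 in Nkx castrate and 5 in Nkx intact, and for 2, 15 and 15 of the other 26 genes in the same order. The majority of the GTPase genes thus differed in direction from that of the other 26 in Clu intact alone, and no test was run on this split. Endothelial markers were higher in library 1 for 12 of 12 genes in Clu intact and in Nkx castrate, and for 9 of 12 in Nkx intact, and their part in the result was not tested. Among class I genes, 9 of 10 were higher in Nkx intact 1 than in Nkx intact 2, while 8 of 10 were higher in Clu intact 2 and 6 of 10 in Nkx castrate 2.

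**Figure D5:**
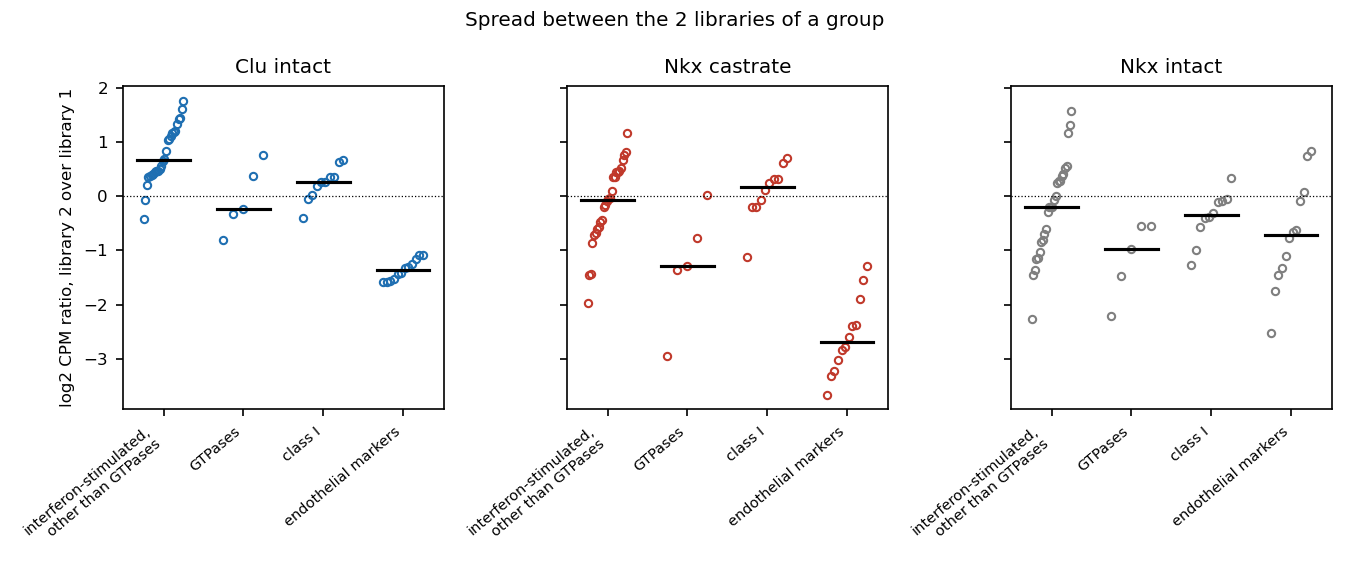
Log2 ratio of CPM in library 2 over library 1 inside each group, 1 point per gene, with bars at the median. Interferon-stimulated genes are split into the 5 GTPase genes and the other 26, beside the 10 class I genes and 12 endothelial markers. In Clu intact 24 of the 26 lie above 0 while all 12 endothelial markers lie below it.

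The inputs of the pathway were sparse at the ligand end. Of 21 interferon genes, 9 had any count and none passed the filter. Ifnk, an interferon of epithelial cells, had 8 and 8 counts in Clu intact cells, 12 and 6 in Nkx castrate cells, and 0 and 2 in Nkx intact. Ifne, the interferon of the female reproductive tract epithelium, had 4 and 10 counts in Clu intact cells, 1 and 2 in Nkx castrate cells, and 0 in both Nkx intact libraries. Ifnb1 had 12 counts in Nkx castrate 1 and 2 in Nkx intact 1. The gene for interferon gamma, Ifng, had 6 counts in Nkx castrate 1 and 3 and 6 in Nkx intact, and it was at 0 in the other libraries. Ifna13 had 0 and 2 counts in Clu intact cells, 5 and 8 in Nkx castrate cells, and 2 and 0 in Nkx intact. Ifnz, Ifnl3, Ifna11 and Ifnab had at most 6 counts in a library. No ligand gene was tested, so these counts are given as values only.

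Receptors and signalling genes followed their own orders. Ifngr1, the ligand-binding chain of the interferon gamma receptor, had 71.0 and 70.5 CPM in Clu intact cells, 30.0 and 34.1 CPM in Nkx castrate cells, and 71.0 and 74.2 CPM in Nkx intact. The castrate group stood apart, lower than Nkx intact (log2 fold change -1.18, SE 0.19, edgeR adjusted p = 0.00887), and Clu intact was higher than Nkx castrate (1.14, SE 0.19, edgeR adjusted p = 0.00597). Jak2, a kinase of that receptor, was higher in Nkx castrate than in Nkx intact, with 136.0 and 136.2 CPM in Nkx castrate cells and 84.3 and 51.3 CPM in Nkx intact (log2 fold change 1.01, SE 0.25, edgeR adjusted p = 0.0484). Among 17 tested sensors and adaptors, Ddx58 (RIG-I) and Tlr4 rose in Clu intact over Nkx intact, with log2 fold changes of 1.44 and 1.24 (edgeR adjusted p = 0.0168 and 0.0312). Over all tested genes 6.29% were called higher there. In the other comparisons 0 were called by edgeR. An unadjusted p under 0.05 was found for 5 in Nkx castrate over Nkx intact and 3 in Clu intact over Nkx castrate. Over all 13846 genes tested the numbers were 3262 and 4495.

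A wider list of 70 further interferon-stimulated genes, of which 64 were tested, gave 6 higher and 0 lower in Nkx castrate over Nkx intact, 12 and 0 in Clu intact over Nkx intact, and 3 and 2 in Clu intact over Nkx castrate. Over all tested genes the shares called higher and lower were 4.02% and 4.59%, 6.29% and 5%, and 8.82% and 8.1% in the same order, so the counts between Clu intact and Nkx castrate lay below the background in both directions. Lgals3bp, a secreted glycoprotein that binds galectins, had 120.8 and 260.5 CPM in Clu intact cells, 23.6 and 29.3 CPM in Nkx castrate cells, and 19.7 and 11.1 CPM in Nkx intact. It was the gene of this list with the clearest Clu intact level, called over Nkx intact (log2 fold change 3.63, edgeR adjusted p = 0.00241) and over Nkx castrate (2.85, edgeR adjusted p = 0.0038). Sp100, a component of nuclear bodies, had 19.2 and 21.3 CPM in Clu intact cells, 49.3 and 71.5 CPM in Nkx castrate cells, and 13.6 and 13.3 CPM in Nkx intact. In this case castration gave the high group, called over Nkx intact (log2 fold change 2.16, edgeR adjusted p = 0.00347), and Clu intact lay below Nkx castrate (-1.58, edgeR adjusted p = 0.00572). Ddx60, a helicase of antiviral defence, was called over Nkx intact in both groups, with log2 fold changes of 3.09 in Clu intact cells and 2.69 in Nkx castrate (edgeR adjusted p = 0.0110 and 0.0220). Phf11d, and Ido1, the enzyme that starts tryptophan breakdown, had log2 fold changes of 3.31 and 4.03 in Nkx castrate over Nkx intact (edgeR adjusted p = 0.0215 and 0.0256). Phf11d had 9.28 and 8.65 CPM in Clu intact cells and 10.5 and 6.88 CPM in Nkx castrate, so its level was alike in both. Ido1 had 2.02 and 2.45 CPM in Clu intact cells and 4.55 and 5.32 CPM in Nkx castrate. Rnf213 and Ifi44 rose in Clu intact over Nkx intact, by 1.27 and 4.40 on the log2 scale (edgeR adjusted p = 0.0144 and 0.0146). Several of these folds rest on few counts in Nkx intact, which were 12 and 18 for Ddx60, 14 and 4 for Phf11d, 2 and 4 for Ido1, and 10 and 4 for Ifi44. Oas1a and Tor3a were higher in Clu intact than in Nkx castrate, by 2.54 and 0.87 on the log2 scale (edgeR adjusted p = 0.0314 and 0.0297).

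Class II genes, which serve presentation to helper T cells and are also inducible by interferon gamma, had another pattern. Cd74, the invariant chain, had 23.3 and 26.5 CPM in Clu intact cells, 269.1 and 69.6 CPM in Nkx castrate cells, and 88.7 and 101.4 CPM in Nkx intact. Of 7 tested genes, 4 were lower in Clu intact than in Nkx castrate (Cd74, H2-Ab1, H2-Eb1 and H2-Aa, log2 fold changes from -3.40 to -2.41, edgeR adjusted p from 0.0124 to 0.0210), against 8.1% of all tested genes. In either comparison with Nkx intact 0 were called by edgeR. There 0 in Nkx castrate cells and 4 in Clu intact had an unadjusted p under 0.05, against 3262 and 3634 of the 13846 genes tested. Nkx castrate 1 was high for both class II genes and leukocyte markers, and the part of the leukocyte markers in the result was not tested.

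Leukocytes and endothelial cells also express many of these genes, and markers of both, and of stromal cells, varied with the groups. In Clu intact over Nkx intact, leukocyte markers had fold changes below 0 for 15 of 17 tested genes, of which 2 were called, and endothelial markers were above 0 for 12 of 12, of which 6 were called. Over all tested genes 5% were called lower and 6.29% higher there, and 6998 of 13846 had fold changes below 0 and 6836 above 0. Tyrobp was at 0 in both Clu intact libraries, against 28 counts in each Nkx intact library, and Ms4a1 was at 0 in both Clu intact libraries, against 6 and 16 counts in Nkx intact. The T cell marker Cd3g was at 0 in the libraries of both groups. In Nkx castrate over Nkx intact, endothelial markers were also above 0 for 12 of 12, with 0 called and 7 at an unadjusted p under 0.05 in edgeR, and leukocyte markers were above 0 for 12 of 17, with 0 called and 2 at an unadjusted p under 0.05. Over all 13846 genes tested, 3262 had such an unadjusted p there and 7337 had a fold change above 0. Of 14 stromal markers, 7 were called higher in Nkx castrate than in Nkx intact (Lum and the contractile genes Myh11, Acta2, Des, Cnn1, Mylk and Actg2), against 4.02% of all tested genes. Myh11, the smooth muscle myosin heavy chain, had 923.2 and 249.9 CPM in Nkx castrate cells and 64.7 and 44.8 CPM in Nkx intact (log2 fold change 3.42, SE 0.66, edgeR adjusted p = 0.0191). The collagen genes Col1a1, Col1a2 and Col3a1 had log2 fold changes from -1.60 to -1.40 there and were not called. In Clu intact over Nkx intact, 0 stromal markers were called by edgeR and 6 of 14 had an unadjusted p under 0.05, against 3634 of the 13846 genes tested. The Nkx castrate libraries, with endothelial sums of 479.8 and 80.5 CPM, had summed levels of the 31 interferon-stimulated genes of 738.0 and 782.0 CPM. Such a sum is weighted to the genes of highest level and does not show how single genes differed. Of the 31, 6 were at least 2-fold higher in Nkx castrate 1 and 1 in Nkx castrate 2, beside 2601 and 689 of the 13846 genes tested (0.1 CPM added to each level). The single markers named here were picked with their values in view. The part of these markers in the results was not tested.

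The calls rested on few libraries. Of the 6 members called in Nkx castrate over Nkx intact, all 6 were called without either castrate library, and 0 without Nkx intact 1 or without Nkx intact 2 (adjusted p up to 0.220 and 0.198 in edgeR). Zbp1, Psmb9 and Nlrc5 also lost the call without either Clu intact library, with 5 libraries in each fit and the lone library of a group assumed to vary like the others. Of the 12 called in Clu intact over Nkx intact, Cxcl10 was called without any single library, Dtx3l without any but Nkx intact 1, and 6, 2, 1 and 2 in all were called without Clu intact 1, Clu intact 2, Nkx intact 1 and Nkx intact 2. Of the 5 called in Clu intact over Nkx castrate, B2m was called without any single library. The other 4 (Parp9, Dtx3l, Samd9l and H2-D1) each lost the call without Clu intact 2 and without Nkx intact 2. In a fit of only the groups compared, Cxcl10 and B2m kept the call after castration, and Parp9 and B2m kept it in Clu intact against Nkx castrate.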

How the data were processed

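The 6 libraries were made with a stranded total RNA kit from 2 ng of RNA, per the labels' protocols. The file the authors deposited holds raw counts of reads for each gene symbol (24498 genes, 4599 of them without a count). Per the submitters' processing notes, the build was GRCm39 and the tools were featureCounts from Subread 2.0.1, STAR 2.7.9a and FastQC 0.11.9. How strand, molecular identifiers and reads with several alignments were treated, and with which annotation, is not given in the sources used here.

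In R 4.3.3, genes were filtered with filterByExpr of edgeR 4.0.16, scaled by TMM and modelled by glmQLFit over all 6 libraries with 1 mean per group. The residual degrees of freedom were 3, those of the prior 4.86, and the common biological coefficient of variation was 33.7%. The 3 comparisons used two-sided quasi-likelihood F tests with Benjamini-Hochberg adjustment over the 13846 genes tested, and a gene was called at an adjusted p under 0.05 with no fold minimum. Fold changes are log2, positive where the group named first is higher, with the SE of the model. CPM are counts over the summed counts of the genes kept, after TMM, and CPM per kb divides by the exon length of GENCODE M21, which held 23628 of the symbols. Script steps were tested on simulated counts. Intervals cover counting error only.

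The members, gene lists, comparisons and naming rule were chosen with earlier results of these data known. The text names all 10 class I genes, the 8 interferon-stimulated genes called in a comparison, those among the 6 of highest mean CPM, and up to 4 called genes of each wider list per comparison with the smallest adjusted p, besides Psmb5, Psmb6, Psmb7 and the interferons with counts. Not every gene that met this rule is reported here. The text marks any further gene as picked with its values in view. Motifs were searched in RefSeq promoter windows of GRCm38.p6. Alternatives were RLE scaling, library totals alone, other filters, DESeq2 1.42.0, a block for the replicate number, fits of only the groups compared, and leaving out each library.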

Additional observations from a re-analysis of the deposited data

How the results depend on the processing

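Under RLE scaling, library totals alone, a stricter filter, no filter, the replicate block and DESeq2, all 6, 12 and 5 members called in Nkx castrate over Nkx intact, Clu intact over Nkx intact, and Clu intact over Nkx castrate were called again. With no filter on low counts, 13, 19 and 7 interferon-stimulated genes were called higher in the same order, 1 was called lower in Clu intact than in Nkx castrate, and 7 class I genes were higher in Clu intact than in Nkx intact. The number called over all genes moved with the setting too. Without the filter 1197, 1467 and 1782 of 19899 genes were called higher, against 556, 871 and 1221 of 13846 in the main fit. DESeq2 called 7 and 13 interferon-stimulated genes higher in the comparisons with Nkx intact, beside 975 of 14563 and 1277 of 14945 genes. In a fit of only the groups compared, 0, 15 and 1 interferon-stimulated genes and 0, 8 and 1 class I genes were called higher. Over all genes 297 of 13470, 1761 of 13170 and 850 of 13570 were called higher in these fits. Same-numbered libraries deviated together only weakly (correlations of 0.235, 0.0901 and 0.0437 between the groups), so the numbers were not treated as pairs. With the replicate block 4 and 11 interferon-stimulated genes were called higher in the comparisons with Nkx intact, beside 711 and 1081 of 13846 genes. Leaving out each library gave 0 to 8, 0 to 18 and 0 to 5 interferon-stimulated genes higher, 0 to 1 lower in Nkx castrate than in Nkx intact and in Clu intact than in Nkx castrate, 0 to 4, 0 to 9 and 1 to 3 class I genes higher, and 0 to 1 lower in the same pair of comparisons. The sign of some uncalled log2 fold changes turned when a library was left out, and the ranges over these fits are given next. In Nkx castrate over Nkx intact, Tapbp lay between -0.22 (without Nkx castrate 2) and 0.42, Trim25 between -0.26 (without Nkx castrate 2) and 0.52, and Stat2 between -0.50 and 0.050 (without Nkx castrate 2, and 0.0011 without Nkx intact 2). In Clu intact over Nkx intact, Stat2 lay between -0.025 (without Clu intact 2) and 0.63. In Clu intact over Nkx castrate, Tap2 lay between -0.28 and 0.042 (without Nkx castrate 2), Zbp1 between -0.36 (without Nkx castrate 2) and 1.11, Psmb8 between -0.27 (without Clu intact 2, and -0.067 without Nkx castrate 1) and 0.36, and Irf9 between -0.57 and 0.12 (without Clu intact 1). The causes were not tested. With 2 libraries a group, the spread between them limits these calls.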
